A study of Homo sapiens with 39 samples.

Results

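Semaphorins, ephrins, slits and netrins are the classical guidance cues, and the 56 genes described here are those cues and their receptors that were detected in C4-2B prostate cancer cells. The members were chosen by symbol: protein-coding genes named as a semaphorin, neuropilin, plexin, ephrin, Eph receptor, slit, ROBO, netrin or UNC5, which gave 68 of the 63187 genes in the table, and of these the 56 with at least 10 counts in at least 3 libraries. The 12 genes below that minimum were EPHA4, NRP2, PLXNC1, ROBO2, ROBO4, SEMA3A, SEMA3D, SEMA5A, SEMA5B, SLIT2, SLIT3 and UNC5D. The rule uses symbols and counts and no difference between treatments, although these gene families were taken up with earlier results of these data known.

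C4-2B is an established castration-resistant human cell line derived from LNCaP, and it was grown here as a single line in medium with serum. One experiment (the panel, 21 libraries) treated cells for 5 days with DMSO, with the hormone pathway inhibitors (ARPi) abiraterone at 5 µM or enzalutamide at 20 µM, with the PARP inhibitors (PARPi) olaparib at 1 µM or talazoparib at 10 nM, with abiraterone plus olaparib, or with enzalutamide plus talazoparib, the combinations at the doses of the single drugs. The other experiment (the time course, 18 libraries) gave DMSO, olaparib at 1 µM or olaparib at 5 µM for 1 or 5 days. Each of the 13 groups held 3 libraries, labelled A to C in the panel and 1 to 3 in the time course, and since nothing states that they came from separate cultures, p-values measure the spread between these libraries, which may be technical.

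Guidance cues bind receptors on a neighbouring or migrating cell and change its cytoskeleton and adhesion. Secreted class 3 semaphorins act through neuropilins and plexins, most membrane semaphorins bind plexins directly, ephrins and Eph receptors are both membrane bound and signal into both cells, slits bind ROBO receptors, and netrins bind DCC, neogenin and UNC5 receptors. Outside the nervous system the same families are known from epithelial boundaries, vessel growth and cell invasion, and in prostate cancer SEMA3C is known as a secreted growth and invasion factor.

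Library totals ran from 26932205 to 49833473 counts in the panel and from 34214001 to 44893664 in the time course, and no pair of replicates agreed within sampling noise. The luminal prostate epithelium genes KLK3, HOXB13, FOLH1, KRT8, KRT18 and EPCAM were high in every library, with EPCAM at 2162 to 4584 counts, whereas KLK2 ran from 416 to 6376 counts and TMPRSS2 from 1115 to 19742 counts. Levels below are given as CPM (counts scaled to a common library size). In the same libraries PECAM1 and KDR did not exceed 4 counts, DCN and LUM did not exceed 1 count, RBFOX3 did not exceed 3 counts and CHGA did not exceed 2 counts. Other genes of the same lists were present, with COL1A1 at 362 to 1032 counts, PDGFRB at 37 to 109, VWF at 266 to 789 and SYP at 24 to 87. KLK3, the androgen-induced gene that encodes PSA, fell by 1.58 with abiraterone and by 2.25 with enzalutamide on the log2 scale, TMPRSS2 fell by 2.45 and by 2.80, and CDKN1A, which encodes p21, rose by 2.18 with olaparib and 1.98 with talazoparib. The summed level of the fibroblast markers moved with the treatments, from 12 to 16.1 CPM in DMSO of the panel to 20.1 to 21.8 CPM with abiraterone, 19.9 to 20.8 CPM with enzalutamide and 23.2 to 24.3 CPM with abiraterone plus olaparib. That of the neuron markers moved too, from 27.7 to 29.7 CPM in DMSO of the panel to 63.3 to 64.4 CPM with abiraterone, 45.7 to 47.9 CPM with enzalutamide and 79.5 to 83.7 CPM with abiraterone plus olaparib, and with the PARPi it was at 37.3 to 39.6 CPM (olaparib) and 34.8 to 35.7 CPM (talazoparib), and at 62 to 63.3 CPM with enzalutamide plus talazoparib. At day 5 of the time course it was at 24.2 to 27.7 CPM in DMSO, 33.1 to 34.4 CPM with 1 µM and 46.9 to 47.6 CPM with 5 µM olaparib. The endothelium markers summed to 14 to 16.5 CPM in DMSO of the panel, 20.8 to 21.3 CPM with abiraterone, 11.6 to 12.8 CPM with enzalutamide and 20.2 to 22.7 CPM with abiraterone plus olaparib. The leukocyte markers summed to 0.034 to 0.076 CPM in DMSO, 0.431 to 0.477 CPM with abiraterone and 1.01 to 1.38 CPM with abiraterone plus olaparib, and the neuroendocrine markers to 2.38 to 2.85 CPM in DMSO and 1.05 to 1.51 CPM with abiraterone. The part of these markers in the results was not tested. TUBB3, MAP2 and NEFL made up nearly all of the neuron sum, while SNAP25 did not exceed 5 counts. In bulk RNA, fewer cells that express a gene and less of its RNA per cell cannot be told apart.

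Levels between genes were compared per length, as FPKM (scaled counts divided by the summed exon length). In DMSO of the panel the highest member was EPHA3, a receptor of A-type ephrins, at 46.5 to 46.9 FPKM over the 3 libraries. Its ligand EFNA5 followed at 33.9 to 34.6 FPKM, and PLXNB2, the plexin B2 receptor of class 4 semaphorins, at 26.8 to 28.1 FPKM. EFNA1 (16.2 to 16.9 FPKM), EFNA3 (9.61 to 11.5 FPKM) and EFNA4 (9.46 to 10.9 FPKM) came next, and the ranges of the last pair overlapped. Thus 4 of the 6 members at 10 FPKM or more were A-type ephrins, and 28 of the 56 members were under 1 FPKM. The single detected slit, SLIT1, and all 4 netrins were among the latter. Reads of EFNA3 and EFNA4 are uncertain between these genes and the EFNA4-EFNA3 readthrough gene, which shares their exons. Exons of SEMA6D, UNC5A, PLXNA3, EPHB4 and SEMA4G overlap those of LINC01491, HK3, LAGE3, SLC12A9 and MRPL43 on the other strand. NRP1, EFNB2, EPHA1, EPHA7, SEMA3B, SEMA3F and others overlap a gene on the other strand too, EPHA6 and EPHB1 overlap a non-coding gene on their own strand, and whether strand was used in the quantification is not given in the sources used here.

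**Figure D1:**
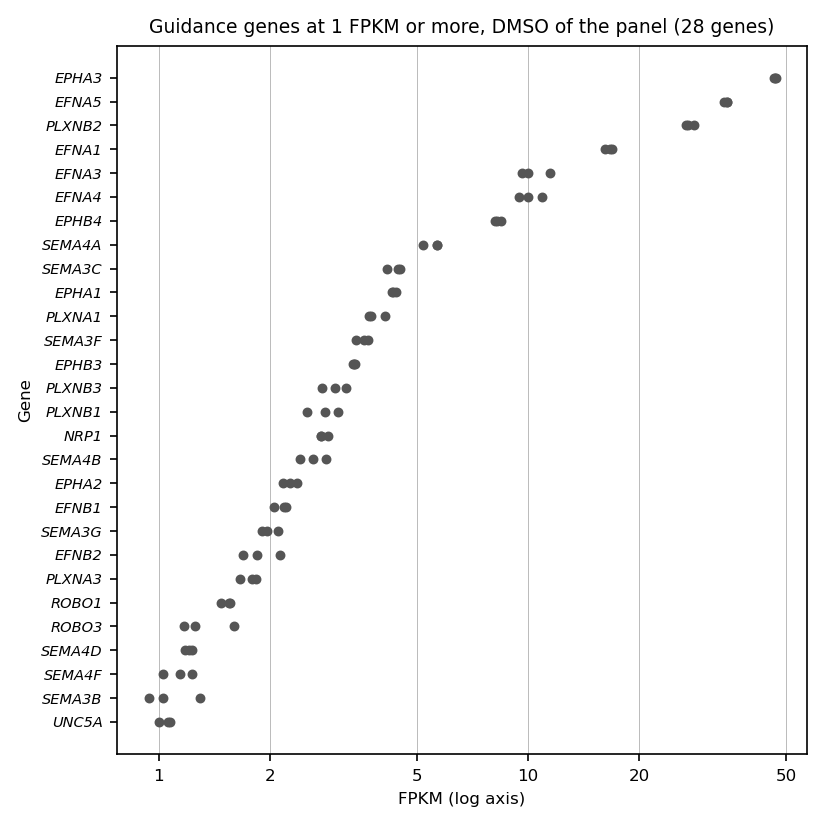
Level per length in DMSO of the panel. Each row is 1 of the 28 guidance genes with a mean of at least 1 FPKM, and each point is 1 of its 3 libraries on a log axis. EPHA3, EFNA5, PLXNB2, EFNA1, EFNA3 and EFNA4 lie highest, and below them neighbouring genes often overlap.

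All members together took 0.121 to 0.125% of all counts in DMSO of the panel, 0.178 to 0.182% with abiraterone and 0.176 to 0.180% with enzalutamide. They took 0.141 to 0.143% with olaparib, 0.134 to 0.137% with talazoparib, 0.196 to 0.199% with abiraterone plus olaparib and 0.200 to 0.202% with enzalutamide plus talazoparib. In the time course the share was 0.125 to 0.129% in DMSO at day 1 and 0.125 to 0.126% at day 5, and 5 µM olaparib brought it to 0.154 to 0.155% at day 1 and 0.165 to 0.167% at day 5. No treated group overlapped its DMSO group in this share.

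The first question was how ARPi treatment changed guidance genes. Most members were higher: of the 54 members tested, abiraterone raised 37 and lowered 8, and enzalutamide raised 36 and lowered 8 (edgeR quasi-likelihood test, Benjamini-Hochberg adjusted over 18625 genes, threshold 0.05). Over all genes tested, 52.9% passed with abiraterone and 53.3% with enzalutamide, with rises and falls in about equal number. The median log2 fold change of the members was 0.58 with abiraterone and 0.56 with enzalutamide, against 0.0003 and 0.02 over all genes. Because a low gene passes the low count filter through the group where it is high, the count was also taken over genes with a mean of at least 50 counts over all libraries: 31 members rose and 5 fell with either drug, 87.8% of 41, where 62.8% and 62.6% of 13655 genes passed. EPHA5 and NTN4 were too low to be tested in the panel. EPHA1, EPHA2, EPHA8, NTN1, NTN5, PLXNA1 and PLXNA4 passed with neither drug. All comparisons against DMSO in the panel share the same 3 DMSO libraries, so their values are given side by side.

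SEMA3C, the secreted class 3 semaphorin on chromosome 7 (GRCh38, 80742538 to 80922359, minus strand), had the largest rise of the class 3 semaphorins with either ARPi. It stood at 25.3, 27.4 and 27.1 CPM in DMSO, at 184, 174 and 165 CPM with abiraterone and at 143, 149 and 147 CPM with enzalutamide. The groups did not overlap, and the lowest enzalutamide library was far above the highest DMSO library. The log2 fold change was 2.71 ± 0.04 (SE, n = 3 per group) with abiraterone (adjusted p = 1.43e-32 by edgeR) and 2.46 ± 0.04 with enzalutamide (adjusted p = 1.83e-31), and the difference of enzalutamide from abiraterone was -0.25 ± 0.04. The related SEMA3F, a ligand of neuropilin 2, rose from 16.5 to 17.8 CPM in DMSO to 38.8 to 43.4 CPM with abiraterone and 40 to 44.6 CPM with enzalutamide. SEMA3B rose too, by 0.89 and 0.81 on the log2 scale, and SEMA3G by 0.38 and 0.50. SEMA3E, with 11, 10 and 13 counts in DMSO, held 3, 1 and 4 counts with abiraterone and 1, 0 and 1 counts with enzalutamide.

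Of the 11 membrane semaphorins, abiraterone raised 9 and enzalutamide 8, where 25.8% and 27% of all genes rose. Both counts include SEMA6B, which reached 10 counts in only 12 libraries and so passed the count minimum through the groups where it was high. SEMA4C, a class 4 ligand of plexin B2, rose from 3.61 to 3.87 CPM in DMSO to 7.99 to 8.71 CPM with abiraterone and 7.64 to 8.28 CPM with enzalutamide. SEMA6B rose from 7, 4 and 9 counts to 45, 44 and 50 counts with abiraterone and to 81, 106 and 72 counts with enzalutamide. SEMA6D, a class 6 ligand of plexin A1 on chromosome 15 (47184101 to 47774228, plus strand), was the single membrane semaphorin that fell with either drug. It held 39, 49 and 57 counts in DMSO, 3, 7 and 5 counts with abiraterone and 4, 6 and 2 counts with enzalutamide. No treated library came near a DMSO library, and the log2 fold change was -3.17 ± 0.32 with abiraterone (adjusted p = 1.49e-10 by edgeR) and -3.69 ± 0.33 with enzalutamide (adjusted p = 8.46e-12), both fitted on very few treated reads.

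**Figure D2:**
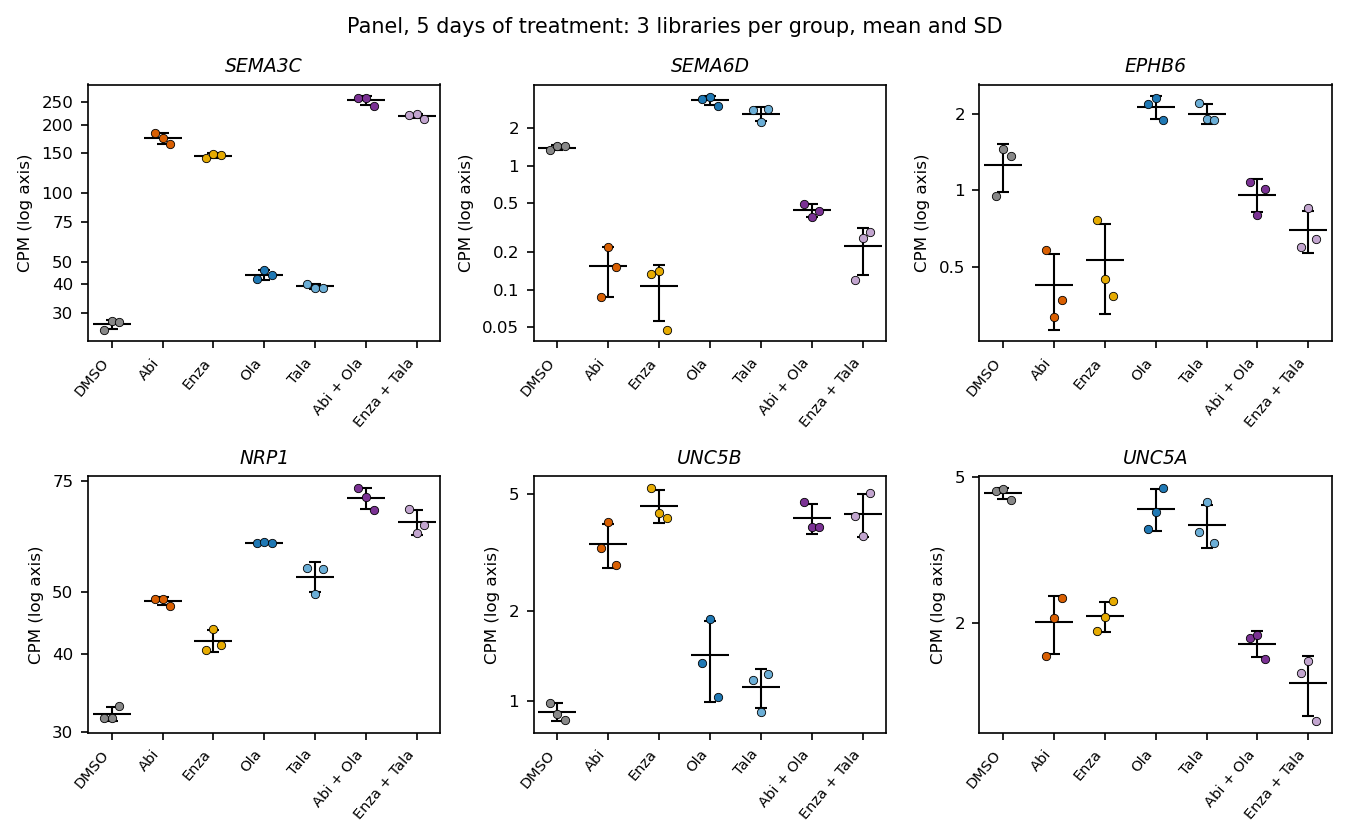
Levels of SEMA3C, SEMA6D, EPHB6, NRP1, UNC5B and UNC5A in the panel after 5 days. Each point is 1 library in CPM on a log axis, and the bars give the mean and SD of 3 libraries. SEMA3C is above DMSO in every treated group, SEMA6D and EPHB6 are below DMSO with either ARPi and above it with either PARPi, and UNC5A and UNC5B move in opposite directions with the ARPi.

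NRP1 and several plexins rose as well. NRP1, the co-receptor neuropilin 1, stood at 31.6, 31.6 and 33.0 CPM in DMSO, at 48.8, 48.8 and 47.6 CPM with abiraterone and at 40.5, 43.8 and 41.3 CPM with enzalutamide, a rise of 0.59 ± 0.05 and 0.39 ± 0.05 on the log2 scale (adjusted p = 1.52e-13 and 4.57e-09 by edgeR). No plexin fell with either ARPi: abiraterone raised 5 of 8 and enzalutamide 6 of 8, against the 25.8% and 27% of all genes that rose. PLXNB1, a receptor of SEMA4D, rose from 24.6 to 29.9 CPM to 53.8 to 59.4 CPM with abiraterone and to 44.7 to 46.4 CPM with enzalutamide. PLXNA3 rose by 0.81 ± 0.06 with abiraterone and by 0.36 ± 0.06 with enzalutamide, and PLXNA2 by 1.14 and 1.21. PLXNB2 rose by only 0.21 and 0.10, and the rise of PLXNB3 with enzalutamide, 0.14 (adjusted p = 0.0332 by edgeR), missed the threshold without DMSO replicate B or C or without enzalutamide replicate A or C, with values of 0.09 to 0.14. Exons of PLXNB3 overlap those of SRPK3 on the same strand, so reads of the pair are uncertain.

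All 5 A-type ephrins rose with both ARPi, among them EFNA3 from 18.7 to 22.3 CPM in DMSO to 38.7 to 42.7 CPM with abiraterone and 41.6 to 44.8 CPM with enzalutamide. EFNA5, the most abundant of them, rose from 195 to 198 CPM to 287 to 296 CPM and 301 to 316 CPM. Among the B-type ephrins, EFNB3 rose from 0.912 to 1.63 CPM to 2.99 to 3.82 CPM with abiraterone and 5.00 to 5.80 CPM with enzalutamide, a difference between the drugs of 0.61 ± 0.16 (adjusted p = 0.005 by edgeR). EFNB2, the ephrin of arterial endothelium, went the other way: it fell by 0.75 ± 0.10 with enzalutamide, and by 0.26 ± 0.10 with abiraterone, where the groups overlapped and the fall was 0.17 (adjusted p = 0.189) without DMSO replicate C and missed the threshold also without abiraterone replicate B or C.

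Eph receptors moved in both directions. EPHB2 rose from 1.47 to 2.07 CPM to 4.45 to 5.08 CPM with abiraterone and 5.63 to 5.71 CPM with enzalutamide, and EPHA10, an Eph receptor that lacks kinase activity, from 0.728 to 1.57 CPM to 4 to 4.45 CPM and 2.97 to 3.89 CPM. In contrast EPHA6 fell from 10.3, 11.3 and 10.9 CPM to 5.69 to 5.91 CPM with abiraterone and 6.17 to 6.77 CPM with enzalutamide, and EPHA7 from 7.57 to 9.64 CPM to 5.76 to 6.30 CPM and 4.26 to 4.6 CPM. EPHB6, the other Eph receptor without kinase activity, fell from 0.951, 1.46 and 1.37 CPM to 0.581, 0.318 and 0.370 CPM with abiraterone and 0.767, 0.448 and 0.383 CPM with enzalutamide. The log2 fold change of EPHB6 was -1.56 ± 0.28 (adjusted p = 1.05e-05 by edgeR) and -1.28 ± 0.27 (adjusted p = 0.000104).

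The netrin and slit receptors were split within their families. UNC5B, a dependence receptor for netrin 1 on chromosome 10 (71212570 to 71302864, plus strand), stood at 0.985, 0.902 and 0.861 CPM in DMSO, 3.28, 4 and 2.86 CPM with abiraterone and 5.24, 4.29 and 4.14 CPM with enzalutamide. The rise was 1.89 ± 0.20 and 2.31 ± 0.20 on the log2 scale (adjusted p = 5.76e-10 and 2.69e-12 by edgeR). UNC5A, of the same family, fell instead, from 4.58, 4.63 and 4.33 CPM to 1.63, 2.06 and 2.34 CPM and to 1.90, 2.08 and 2.30 CPM, by 1.17 ± 0.16 and 1.10 ± 0.16. UNC5C was at 0, 0 and 1 counts in DMSO, at 11, 4 and 2 counts with abiraterone and at 11, 10 and 14 counts with enzalutamide. ROBO3, which modulates slit responses, fell from 8.15 to 11.1 CPM to 4.92 to 5.32 CPM and 5.6 to 6.51 CPM, whereas ROBO1 rose by 0.18 and 0.32, the first missing the threshold without DMSO replicate C. SLIT1 rose by 1.45 and 1.39 from 0.405 to 0.475 CPM, and part of its reads may belong to the ARHGAP19-SLIT1 readthrough gene. Further members had few counts, which are given in place of fold changes. EPHB1 held 1, 3 and 2 counts in DMSO, 12, 15 and 14 counts with abiraterone and 3, 3 and 9 counts with enzalutamide. NTN1, the ligand of UNC5 receptors, did not exceed 15 counts in any library, and PLXNA4 did not exceed 17 counts. NTN3 held 3, 1 and 4 counts in DMSO and 9 to 15 counts with abiraterone and 11 to 24 counts with enzalutamide.

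**Figure D3:**
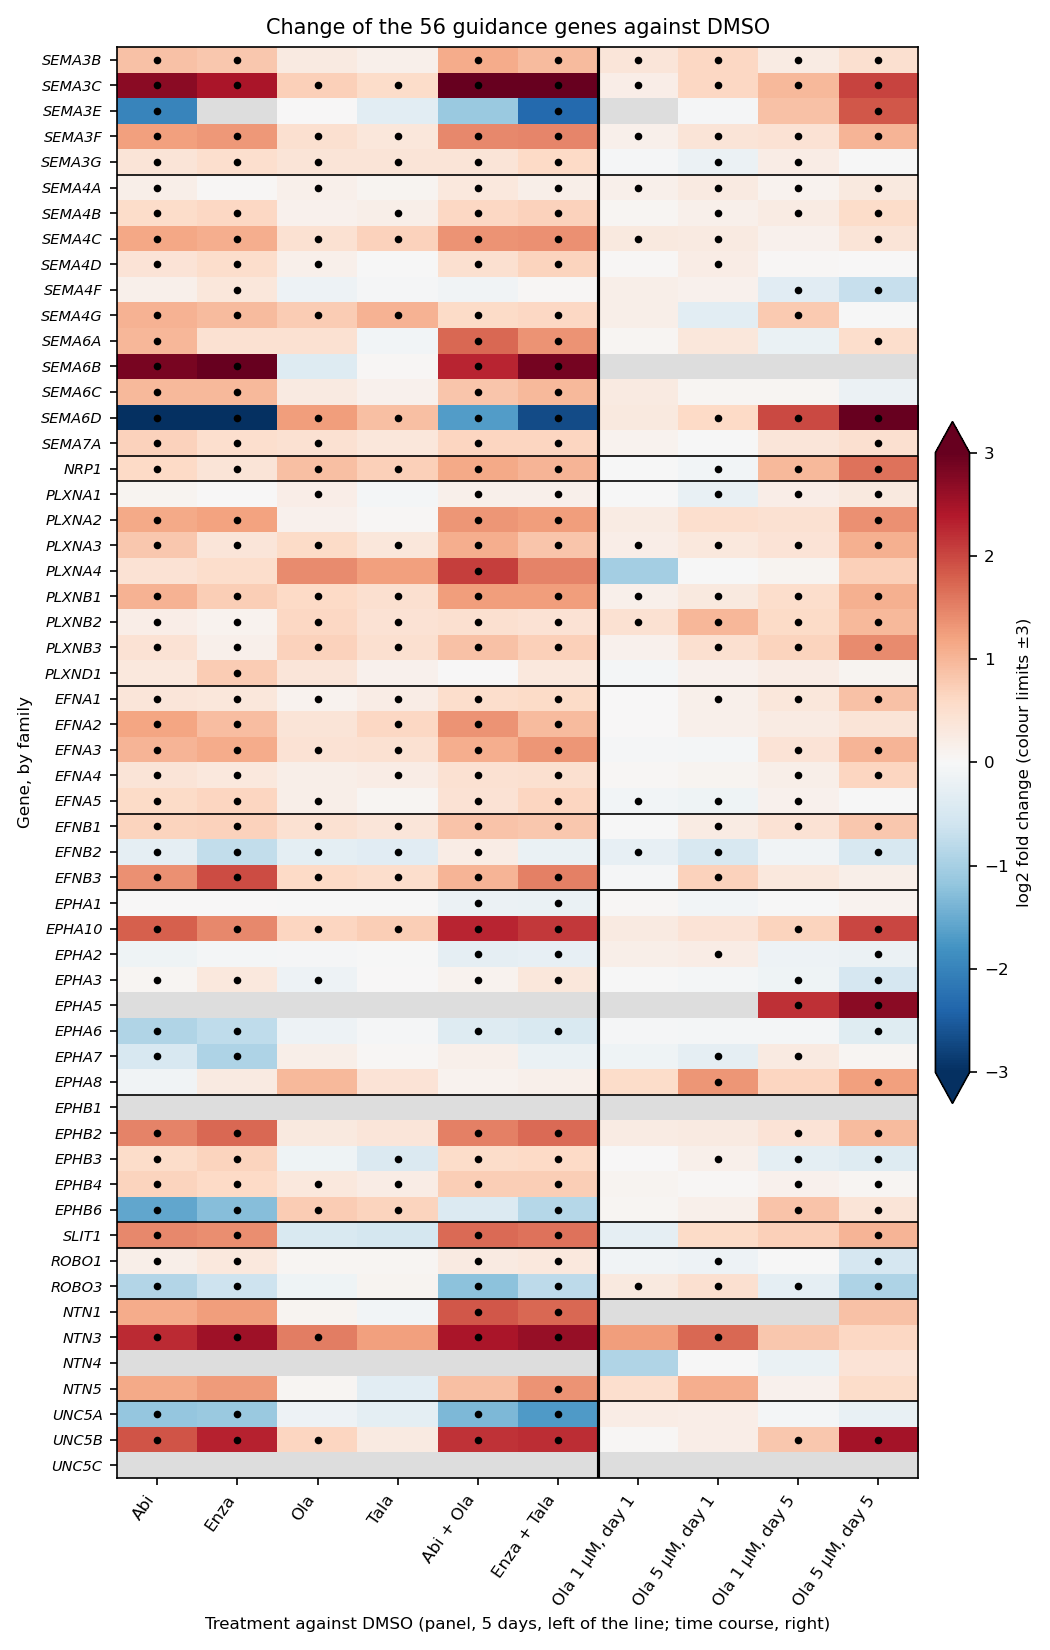
Log2 fold change of each guidance gene against its own DMSO group, by family, in the panel (left of the line) and in the olaparib time course (right). Colours run from -3 to 3, a dot marks an adjusted p under 0.05, and grey marks genes not tested or with at most 3 counts in every library of a group. SEMA3C is red in all 10 columns, SEMA6D is blue in the 4 columns with an ARPi and red elsewhere, and NRP1 is near white at day 1.

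The second question was how PARPi changed the same genes. Olaparib raised 25 members and lowered 2, and talazoparib raised 21 and lowered 2, where 35.6% and 33.8% of all genes passed. The median log2 fold change of the members was 0.31 and 0.22, against 0.02 over all genes in both comparisons. Among genes with a mean of at least 50 counts, 22 members rose and 2 fell with olaparib (58.5% of 41, against 45.1% of all genes), and 19 rose and 2 fell with talazoparib (51.2%, against 42.8%). The changes were smaller than with the ARPi, and 2 members with olaparib and 1 with talazoparib passed with a fold change above 2 in either direction, against 21 with abiraterone and 17 with enzalutamide. Over all genes the share past that fold was 2.7%, 2.49%, 10.5% and 11.1% in the same order.

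Among the receptors, NRP1 and 4 plexins rose with both PARPi. NRP1 rose to 59.9, 60.1 and 59.8 CPM with olaparib and to 54.7, 49.7 and 54.5 CPM with talazoparib, above every DMSO and every single-agent ARPi library. The log2 fold change was 0.90 ± 0.04 (adjusted p = 1.02e-17 by edgeR) and 0.72 ± 0.04 (adjusted p = 5.55e-15). PLXNB2 stood at 204, 197 and 195 CPM in DMSO, at 298, 300 and 318 CPM with olaparib and at 272, 270 and 261 CPM with talazoparib, and PLXNB1, PLXNB3 and PLXNA3 rose by 0.57 to 0.68 with olaparib and by 0.35 to 0.49 with talazoparib. Among the cues SEMA3C rose to 42, 46.2 and 43.8 CPM and to 40.1, 38.4 and 38.6 CPM, and SEMA3F by 0.47 and 0.35.

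SEMA6D and EPHB6, which fell with the ARPi, rose with the PARPi. SEMA6D reached 3.45, 3.56 and 3.04 CPM with olaparib and 2.79, 2.23 and 2.86 CPM with talazoparib from 1.32, 1.43 and 1.44 CPM, a rise of 1.26 ± 0.23 (adjusted p = 2.87e-05 by edgeR) and 0.91 ± 0.23 (adjusted p = 0.00177). EPHB6 reached 2.19, 2.31 and 1.89 CPM and 2.21, 1.91 and 1.89 CPM, a rise of 0.75 ± 0.24 (adjusted p = 0.0115) and 0.66 ± 0.23 (adjusted p = 0.0277). Without DMSO replicate A, the lowest of its group, the EPHB6 rise was 0.59 (adjusted p = 0.0679) with olaparib and 0.50 (adjusted p = 0.131) with talazoparib, and the latter also missed the threshold without talazoparib replicate A, so the EPHB6 rise against DMSO in the panel rests on single libraries while its fall with the ARPi did not. In all, 15 of the 27 calls with olaparib and 17 of the 23 with talazoparib held under every alternative run, and rises that did not hold included EFNA1, NTN3, SEMA4A, SEMA4D and SEMA7A with olaparib and EFNA2, EFNA4 and SEMA4B with talazoparib. Further rises that rested on single libraries were UNC5B with olaparib, 0.64 with all libraries and 0.37 (adjusted p = 0.236) without olaparib replicate B, which missed the threshold also without DMSO replicate B or C, EPHA10 with olaparib, 0.39 (adjusted p = 0.0983) without DMSO replicate B, SEMA4C with olaparib, 0.29 (adjusted p = 0.0572) without olaparib replicate A, and EFNB3, 0.36 with olaparib (adjusted p = 0.137) and 0.28 with talazoparib (adjusted p = 0.275) without DMSO replicate C. EFNB3 also missed the threshold without olaparib replicate B and without talazoparib replicate A or B. EPHA3 fell with olaparib by 0.16 ± 0.03 and EPHB3 with talazoparib by 0.44, and EFNB2 fell with both by 0.29 and 0.35, where both missed the threshold without DMSO replicate C and the former also without olaparib replicate A. SEMA4G, a class 4 semaphorin, rose by 0.76 with olaparib, or 0.58 (adjusted p = 0.0567) without DMSO replicate C, and by 1.05 with talazoparib.

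Because the members that fell with ARPi included genes with the opposite response to PARPi, sequence before a start site of SEMA6D and EPHB6 is shown with that of SEMA3C, one of the genes that rose with both classes. The bases come from RefSeq (GRCh38.p14), read 5′ to 3′ on the gene's strand, from the 250 bases before a start site and without bases in annotated exons of the same gene. Capitals mark CpG, the dinucleotide CG that is methylated in mammalian DNA and is dense in CpG islands. For SEMA6D (chr15:47717255-47717401, plus strand, 147 bases) and SEMA3C (chr7:80919184-80919301, minus strand, 118 bases) the start site is that of the GENCODE canonical transcript. For EPHB6 (chr7:142862506-142862755, plus strand, 250 bases) it is not, and the RefSeq start lies inside the gene (142855061 to 142871094). The EPHB6 stretch may therefore lie outside the promoter that the cells used.
SEMA6D: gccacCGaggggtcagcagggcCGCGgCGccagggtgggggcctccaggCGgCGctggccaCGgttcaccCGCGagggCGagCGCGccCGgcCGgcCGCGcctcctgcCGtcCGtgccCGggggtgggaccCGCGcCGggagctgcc
EPHB6: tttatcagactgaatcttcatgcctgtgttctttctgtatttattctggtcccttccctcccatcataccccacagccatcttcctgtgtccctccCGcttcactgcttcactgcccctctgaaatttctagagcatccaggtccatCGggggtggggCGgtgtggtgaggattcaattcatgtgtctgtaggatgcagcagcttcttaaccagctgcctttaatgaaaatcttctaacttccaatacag
SEMA3C: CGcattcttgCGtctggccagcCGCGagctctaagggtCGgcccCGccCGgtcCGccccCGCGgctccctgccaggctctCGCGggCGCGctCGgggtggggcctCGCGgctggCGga
The SEMA6D and SEMA3C stretches held 22 and 18 CpG with a GC content of 83.7% and 78.8%, and that of EPHB6 held 3 CpG in its longer stretch with a GC content of 48%. Promoter entries were found for 48 of the 56 members, 75 entries in all. Their median was 19 CpG in the 250 bases and 100% held at least 1, against a median of 11 and 93.9% over all 35116 entries. These counts describe letters in short windows only, and the libraries do not show which start site the cells used.

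The third question was how the combinations compared with DMSO and with the single ARPi. Against DMSO, abiraterone plus olaparib raised 41 members and lowered 6, and enzalutamide plus talazoparib raised 39 and lowered 8, where 62.2% and 62.4% of all genes passed, and the median log2 fold change of the members was 0.68 and 0.70. Among genes with a mean of at least 50 counts, 33 members rose and 5 fell with abiraterone plus olaparib (92.7% of 41, against 72.2% of all genes). With enzalutamide plus talazoparib 32 rose and 5 fell (90.2%, against 72.6%). SEMA3C reached its highest levels of the panel here, at 261, 262 and 242 CPM and at 219, 222 and 213 CPM, a rise over DMSO of 3.26 ± 0.04 and 3.03 ± 0.04. NRP1 reached 73.1, 70.7 and 67.5 CPM and 67.8, 62.0 and 64.0 CPM, and EPHA10 5.94 to 5.99 CPM and 4.70 to 5.68 CPM. Both genes were above every library of their single drugs. SEMA6D stayed below DMSO, at 15, 15 and 12 counts and 6, 11 and 10 counts, and UNC5A likewise at 1.59 to 1.86 CPM and 1.08 to 1.58 CPM.

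Adding olaparib to abiraterone raised 16 members and lowered 2, where 29.2% of all genes passed, and adding talazoparib to enzalutamide raised 19 and lowered 5, where 34.4% passed. Among genes with a mean of at least 50 counts, 39% of 41 members and 37% of all genes passed with olaparib added. With talazoparib added the shares were 56.1% and 43.3%. SEMA3C rose by 0.55 ± 0.04 and 0.57 ± 0.04, NRP1 by 0.54 ± 0.04 and 0.62 ± 0.04, PLXNB3 by 0.46 ± 0.05 and 0.58 ± 0.05, and PLXNB2 by 0.28 ± 0.03 and 0.34 ± 0.03 (largest adjusted p = 1.65e-08 by edgeR). SEMA6D rose by 1.49 ± 0.37 over abiraterone (adjusted p = 0.00193), and the difference over enzalutamide was 1.01 ± 0.41 (adjusted p = 0.0871). EPHA7 rose by 0.63 and 0.71 and EFNB2 by 0.48 and 0.56. The olaparib comparison with and without abiraterone shares no library: of the 27 members that passed for olaparib alone and the 18 that passed on top of abiraterone, 12 moved in the same direction in both (44.4% and 66.7% of each list) and EFNA5 and EFNB2 moved in opposite directions. Over all genes the corresponding shares were 48% and 58.6%, with 202 genes in opposite directions. The EFNB2 fall with olaparib alone missed the threshold without DMSO replicate C. For talazoparib alone (23 members) and on top of enzalutamide (24 members), 12 moved the same way (52.2% and 50%, against 55% and 54% over all genes) and EFNB2 and EFNB3 moved in opposite directions, as did 235 of all genes. The calls of EFNB2 and EFNB3 with talazoparib alone did not hold under every alternative run, nor did that of EFNB3 on top of enzalutamide.

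**Figure D4:**
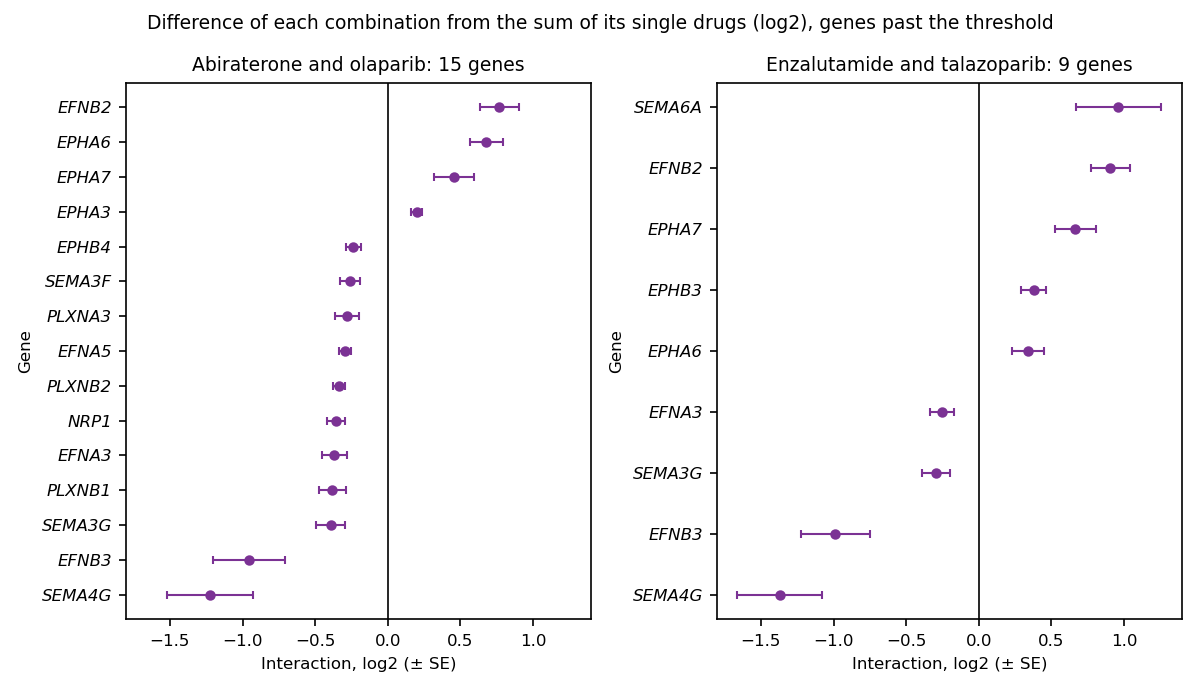
Interaction of the drugs for guidance genes past the threshold, 15 for abiraterone with olaparib (left) and 9 for enzalutamide with talazoparib (right). Points give the log2 change with the combination minus the sum of the log2 changes with its single drugs, and bars the SE. EFNB2 and EPHA7 lie above 0 in both and SEMA4G and EFNB3 lie below 0 in both.

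Whether a combination departed from the sum of its single drugs on the log2 scale was tested as an interaction. It passed for 15 members with abiraterone and olaparib (4 positive, 11 negative), where 12.8% of all genes passed, and for 9 members with enzalutamide and talazoparib (5 positive, 4 negative), where 12.6% passed. The latter count was 5 without enzalutamide replicate C, and 5 of its 9 calls (EFNB2, EFNB3, EPHA7, EPHB3 and SEMA4G) held under every alternative run. Of those that passed, EFNB2 had the largest positive interaction with abiraterone and olaparib. Each single drug lowered it, from 8.46, 9.23 and 10.7 CPM in DMSO to 7.54 to 8.54 CPM with abiraterone, 5.17 to 6.27 CPM with enzalutamide, 7.48 to 8.05 CPM with olaparib and 6.97 to 8.38 CPM with talazoparib. The fall with enzalutamide held under every alternative run, and the falls with the other drugs missed the threshold without DMSO replicate C. The combinations were at 11.2, 11.3 and 10.6 CPM and at 8.50, 8.65 and 7.73 CPM, and the interaction was 0.77 ± 0.13 (adjusted p = 0.000134 by edgeR) and 0.91 ± 0.14 (adjusted p = 1.34e-05). EPHA6 and EPHA7 also had positive interactions, 0.68 and 0.46 with abiraterone and olaparib and 0.34 and 0.67 with enzalutamide and talazoparib. The interaction of EPHA7 in the first combination was 0.36 (adjusted p = 0.0864) without DMSO replicate A and missed the threshold also without abiraterone replicate C or combination replicate A. That of EPHA6 in the second missed it without DMSO replicate B or C or without enzalutamide replicate A or C, with 0.31 to 0.33.

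EFNB3 and SEMA4G, which rose with each single drug, had negative interactions in both combinations. The rises of EFNB3 with either PARPi and of SEMA4G with olaparib missed the threshold without DMSO replicate C. EFNB3 was at 2.44 to 2.90 CPM with abiraterone plus olaparib, below the 2.99 to 3.82 CPM with abiraterone alone, a difference that did not pass. Its interaction was -0.95 ± 0.25 (adjusted p = 0.00788 by edgeR) in this combination and -0.99 ± 0.24 (adjusted p = 0.0047) in the other. SEMA4G, at 0.684 to 1.22 CPM in DMSO, was at 1.63 to 2.22 CPM with abiraterone, 1.46 to 1.63 CPM with olaparib and 1.06 to 1.56 CPM with both, an interaction of -1.22 ± 0.30 (adjusted p = 0.00477), and -1.37 ± 0.29 (adjusted p = 0.00131) with enzalutamide and talazoparib. PLXNB2, NRP1 and PLXNB1 had interactions of -0.33, -0.36 and -0.38 with abiraterone and olaparib, whereas with enzalutamide and talazoparib they had -0.10, -0.10 and 0.01 and did not pass. Whether the interactions of the combinations differed from each other was not tested. SEMA3C had an interaction of -0.17 ± 0.06 (adjusted p = 0.0524) and 0.03 ± 0.06 (adjusted p = 0.845).

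Drugs of the same class were compared directly. Enzalutamide differed from abiraterone for 14 members (4 higher, 10 lower), where 19.8% of all genes passed, and talazoparib from olaparib for 9 members (1 higher, 8 lower), where 8.36% passed. The latter count was 4 without talazoparib replicate B. EPHA3 was higher with enzalutamide (373 to 395 CPM) than with abiraterone (320 to 322 CPM), by 0.26 ± 0.03 (adjusted p = 4.21e-09 by edgeR). PLXNA3, PLXNB1 and PLXNB3 were lower with enzalutamide, with log2 differences of -0.45, -0.30 and -0.28. PLXNB2 and EPHB3 were lower with talazoparib than with olaparib, with log2 differences of -0.19 ± 0.03 (adjusted p = 5.1e-05) and -0.31 ± 0.07 (adjusted p = 0.00266). For SEMA6D the difference was -0.52 ± 0.46 between the ARPi and -0.35 ± 0.21 between the PARPi, and neither passed.

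The time course asked how the olaparib response depended on dose and duration. At day 1, 1 µM olaparib raised 9 of 53 members tested and lowered 2, where 15.8% of 18502 genes passed, and 5 µM raised 21 and lowered 8, where 45% passed. EPHB1, SEMA6B and UNC5C were too low to be tested here. The count at 1 µM was 6 or 7 without DMSO replicate 1 or 3 or without any of the 3 olaparib replicates, and the calls that held under every alternative were PLXNB2, SEMA4A and EFNA5. At day 5, 1 µM raised 26 and lowered 4, where 46.3% passed, and 5 µM raised 29 and lowered 8, where 68.2% passed. The median log2 fold change of the members was 0.06 and 0.15 at day 1 and 0.25 and 0.48 at day 5, against values from -0.01 to 0.02 over all genes. At 5 µM and day 5 the share of members called was close to that of all genes, also among genes with a mean of at least 50 counts (80% of 40 members, 78.2% of 13583 genes), and the direction differed: 24 of those members rose and 8 fell, against 5173 and 5449 of all genes. Day 5 differed from day 1 in DMSO itself for 12 members (7 higher, 5 lower), where 24.5% of genes passed, and for 7 without day 1 DMSO replicate 1.

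PLXNB2 responded within 1 day and by dose. It was at 199, 199 and 206 CPM in DMSO at day 1, 275, 276 and 274 CPM with 1 µM and 405, 406 and 402 CPM with 5 µM, without overlap. At day 5 it was at 193, 195 and 196 CPM in DMSO, 287, 292 and 293 CPM with 1 µM and 374, 376 and 391 CPM with 5 µM. The log2 fold change at 5 µM was 1.00 ± 0.02 at day 1 and 0.97 ± 0.02 at day 5, and the difference between the days was -0.04 ± 0.03 (adjusted p = 0.257 by edgeR). At 1 µM the rise was 0.45 and 0.58, a difference of 0.13 ± 0.03 (adjusted p = 0.000634). SEMA4A, a class 4 semaphorin, showed small rises at both days, of 0.14 and 0.27 at day 1 and 0.12 and 0.29 at day 5.

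**Figure D5:**
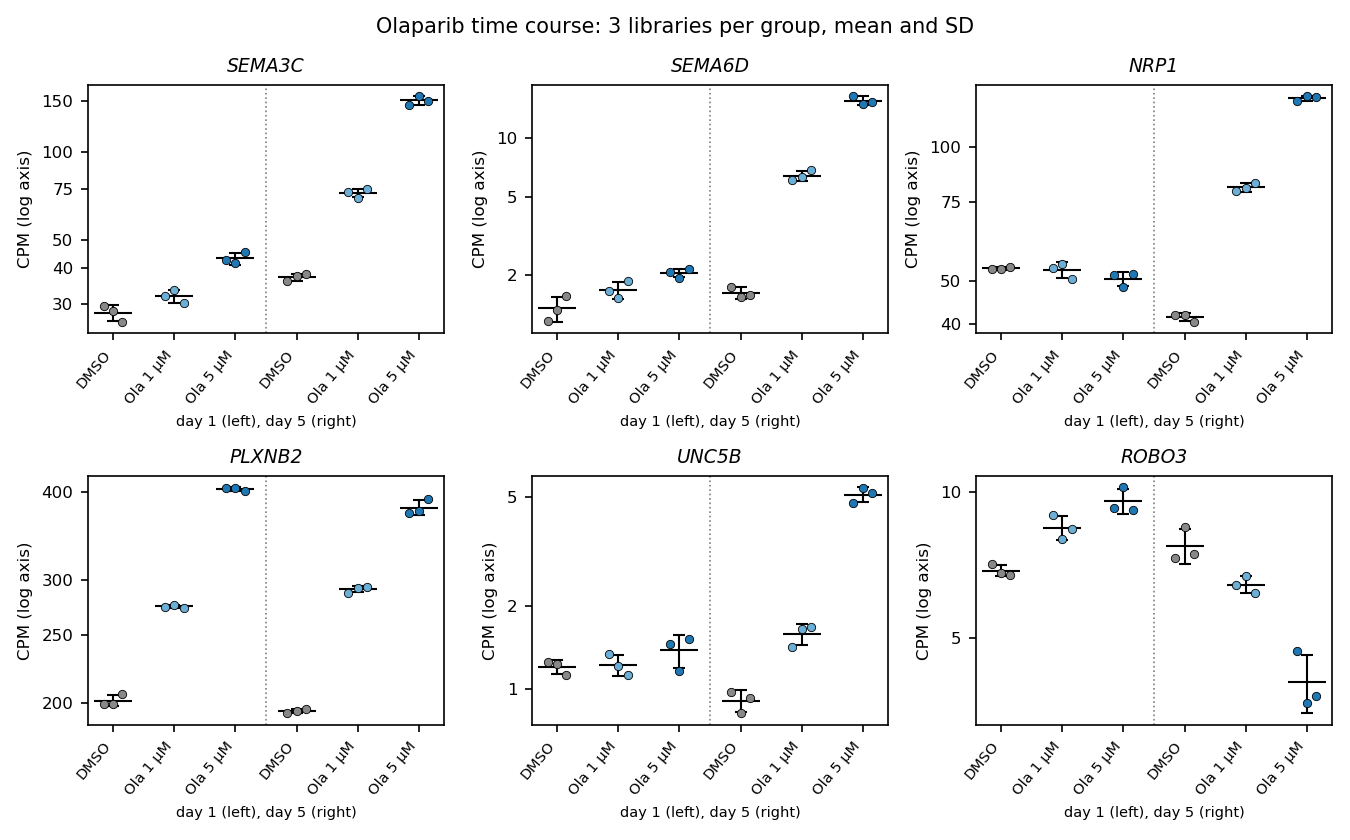
Levels of SEMA3C, SEMA6D, NRP1, PLXNB2, UNC5B and ROBO3 in the olaparib time course. Each point is 1 library in CPM on a log axis, with the mean and SD of 3 libraries, day 1 left of the dotted line and day 5 right of it. PLXNB2 rises with dose at both days, SEMA3C, SEMA6D, NRP1 and UNC5B rise mainly at day 5, and ROBO3 is above DMSO at day 1 and below it at day 5.

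NRP1 and UNC5B showed the delayed pattern. NRP1 was at 53.0, 53.1 and 53.8 CPM in DMSO at day 1, 53.4, 54.6 and 50.4 CPM with 1 µM and 51.4, 48.4 and 51.7 CPM with 5 µM. At day 5 it was at 41.9, 41.8 and 40.4 CPM in DMSO, 79.4, 80.9 and 82.9 CPM with 1 µM and 127, 130 and 129 CPM with 5 µM. The groups at day 5 did not overlap, and the rise was 0.97 ± 0.03 and 1.64 ± 0.03, whereas the change at day 1 was -0.01 ± 0.03 (adjusted p = 0.834 by edgeR) and -0.08 ± 0.03 (adjusted p = 0.0479). The small fall at 5 µM and day 1 missed the threshold without any 1 of the DMSO replicates or olaparib replicate 2, with -0.08 to -0.05. The level in DMSO itself fell by 0.37 ± 0.03 between the days, and the difference of the effects was 0.98 ± 0.05 and 1.71 ± 0.04 (adjusted p = 3.64e-19 and 5.14e-28). UNC5B was at 1.12 to 1.25 CPM in DMSO, 1.12 to 1.33 CPM with 1 µM and 1.16 to 1.51 CPM with 5 µM at day 1. At day 5 it was at 0.970, 0.812 and 0.926 CPM, 1.42, 1.65 and 1.68 CPM and 4.73, 5.36 and 5.18 CPM. The groups overlapped at day 1 and not at day 5, where it rose by 0.80 ± 0.16 and 2.49 ± 0.15 (adjusted p = 0.0001 and 4.37e-17).

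SEMA3C and SEMA6D rose with 5 µM at both days and more at day 5. SEMA3C was at 26.1 to 29.7 CPM in DMSO, 30.3 to 33.6 CPM with 1 µM and 41.5 to 45.5 CPM with 5 µM at day 1, and at 35.9 to 38.1, 69.8 to 74.5 and 145 to 156 CPM at day 5. Its log2 fold change with 5 µM was 0.62 ± 0.05 at day 1 and 2.02 ± 0.04 at day 5. With 1 µM it was 0.19 ± 0.05 and 0.96 ± 0.04, and the former was 0.14 to 0.15 and missed the threshold without day 1 DMSO replicate 3 or olaparib replicate 2. SEMA6D held 41, 56 and 60 counts in DMSO and 81, 68 and 79 counts with 5 µM at day 1. With 1 µM its change at day 1 was 0.30 ± 0.13 (adjusted p = 0.176). It held 79, 57 and 61 counts in DMSO, 227, 234 and 244 counts with 1 µM and 585, 529 and 539 counts with 5 µM at day 5. The rise at day 5 was 1.98 ± 0.11 and 3.25 ± 0.11 (adjusted p = 2.4e-17 and 2.3e-25 by edgeR), the largest of the members at 5 µM.

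ROBO3 changed direction between the days. It was at 6.76 to 7.10 CPM in DMSO, 8 to 8.98 CPM with 1 µM and 9.22 to 10.2 CPM with 5 µM at day 1, and at 7.34 to 8.50, 6.20 to 6.72 and 3.68 to 4.70 CPM at day 5. The change with 5 µM was 0.48 ± 0.08 at day 1 and -0.93 ± 0.09 at day 5, with a difference of -1.41 ± 0.12 (adjusted p = 1.95e-12 by edgeR). At 1 µM the rise at day 1 was 0.25 (adjusted p = 0.0702) without olaparib replicate 1, and the fall at day 5 was 0.20 (adjusted p = 0.0833) without DMSO replicate 2. SEMA4F and EPHA3 fell at day 5, by 0.69 ± 0.09 and 0.51 ± 0.03 with 5 µM, and were at 0.13 ± 0.09 and -0.06 ± 0.03 at day 1, where neither passed. EPHB2, EPHA10 and EFNA3 rose at day 5 with 5 µM by 0.96, 2.00 and 1.02, and EFNB2 fell by 0.49 at day 1 and 0.48 at day 5. EPHB6 was higher at day 5 with 1 µM (3.41 to 3.44 CPM) than with 5 µM (2.02 to 2.91 CPM), a log2 difference of -0.46 for the higher against the lower dose, which missed the threshold without 5 µM replicate 2.

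Over the members, the olaparib effect differed between the days for 23 members at 1 µM (18 more positive at day 5, 5 more negative), where 29.8% of all genes passed, and for 30 members at 5 µM (22 and 8), where 54.9% passed. The share of members that passed was 43.4% at 1 µM and 56.6% at 5 µM, the latter close to that of all genes. At day 5, 5 µM differed from 1 µM for 35 members (24 higher, 11 lower), where 53.6% passed.

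Olaparib at 1 µM for 5 days was given in both experiments, with no library in common. Of the 51 members tested in both, 27 passed in the panel and 29 in the time course, and 21 passed in the same direction in both, 77.8% and 72.4% of each list, with none in opposite directions. Over all 17960 genes tested in both the shares were 81.9% and 63.6%, with 18 genes in opposite directions. The 21 were EFNA1, EFNA3, EFNA5, EFNB1, EPHA3, EPHA10, EPHB4, EPHB6, NRP1, PLXNA1, PLXNA3, PLXNB1, PLXNB2, PLXNB3, SEMA3C, SEMA3F, SEMA3G, SEMA4A, SEMA4G, SEMA6D and UNC5B, with EPHA3 the one that fell. SEMA6D rose by 1.26 in the panel and 1.98 in the time course, NRP1 by 0.90 and 0.97, PLXNB2 by 0.62 and 0.58, and UNC5B by 0.64 and 0.80. Of the calls in each experiment, 15 of 27 in the panel and 23 of 30 in the time course held under every alternative run. EPHB6 held in the time course and not in the panel. Its time-course levels at day 5 were 1.57 to 2.08 CPM in DMSO and 3.41 to 3.44 CPM with 1 µM olaparib.

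Genes that act with the cues and receptors were taken from a list of 60 (netrin and RGM receptors, small GTPase regulators, kinases and cytoskeletal effectors), of which 53 were tested in the panel and 52 in the time course. Abiraterone raised 30 and lowered 12, enzalutamide raised 29 and lowered 12, olaparib raised 16 and lowered 8, and talazoparib raised 8 and lowered 14, where 52.9%, 53.3%, 35.6% and 33.8% of all genes passed in either direction. The combinations raised 31 and 32 and lowered 13 and 15, where 62.2% and 62.4% of all genes passed. MICAL1, the oxidase that acts on actin downstream of semaphorins and plexins, moved in the directions of SEMA6D: it fell by 0.92 and 1.75 with abiraterone and enzalutamide and rose by 1.30 and 1.07 with olaparib and talazoparib. LIMK2, a kinase of cofilin, rose with each single drug, by 0.56, 0.35, 0.60 and 0.54. GRB10, an adaptor of receptor tyrosine kinases, rose by 1.17 and 1.46 with the ARPi and fell by 0.55 and 0.54 with the PARPi. NEO1, the netrin and RGM receptor neogenin, rose by 0.53 and 0.60 with the ARPi, fell by 0.14 with talazoparib and did not pass with olaparib in the panel (0.003). At day 5, 5 µM olaparib raised 26 of the 52 listed genes tested and lowered 17, where 68.2% of all genes passed, among them MICAL1 with a rise of 2.07 and RND3, an atypical small GTPase, with a fall of 1.00.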

How the data were processed

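RNA from C4-2B cells was sequenced in 39 libraries of 13 groups with a stranded mRNA kit. The authors deposited estimated counts per gene, made with the nf-core/rnaseq pipeline (Trim Galore, STAR alignment to GRCh38 and Salmon on GENCODE release 45). The deposited values were whole numbers, and how they were rounded is not given in the sources used here. Symbols, exon lengths and coordinates came from GENCODE release 44, which named 62666 identifiers and left 521 without a symbol (0.12% of all counts). No column lacked a sample (0 columns). Median library totals were 36348316 counts in the panel and 37545065 in the time course.

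Each experiment was fitted once with all its groups in edgeR 4.0.16 (R 4.3.3, limma 3.58.1) with TMM scaling, filterByExpr by group and a robust quasi-likelihood fit, and p-values were adjusted by Benjamini-Hochberg at 0.05 over 18625 genes in the panel and 18502 in the time course. CPM and FPKM used TMM library sizes. Fold changes are log2 values, and the SE is the absolute log2 fold change divided by the square root of the F statistic of its test. Genes with at most 3 counts in every library of a group were given no fold change. The members discussed most were the 18 with a call of log2 size 1 or more and, in whichever group was higher, a mean count of 100 or more (no more than 24 allowed), and others were named to complete their family or because their calls rested on single libraries, the latter after their values were seen. The members, the list of 60 pathway genes and the marker lists were chosen with earlier results of these data known.

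The scripts were tested on simulated data. Alternatives were RLE scaling, no filter on low counts, the DESeq2 1.42.0 Wald test, the replicate letter or number as a block, and leaving out each library in turn. Replicates were checked for duplicate libraries, and none was found. A planned promoter motif search and some marker genes are not reported here.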

Additional observations from a re-analysis of the deposited data

Results flagged for a closer look

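The effect of olaparib differed between day 1 and day 5 for several of the members discussed most, by a test of the difference itself (the interaction of dose and day, edgeR, adjusted p under 0.05). Values are the log2 fold change against DMSO at day 5 minus that at day 1. At 1 µM the difference was 1.68 for SEMA6D, 0.98 for NRP1, 0.78 for UNC5B, 0.77 for SEMA3C, 0.54 for PLXNB3, 0.44 for EFNA3, 0.39 for PLXNB1, 0.26 for SEMA3F, 0.21 for PLXNA3, 0.13 for PLXNB2 and -0.56 for ROBO3. That of PLXNA3 missed the threshold in 6 of the alternatives, among them without day 1 DMSO replicate 3 (0.14, adjusted p = 0.181). At 5 µM the difference was 2.65 for SEMA6D, 2.28 for UNC5B, 1.71 for NRP1, 1.60 for EPHA10, 1.4 for SEMA3C, 1.07 for EFNA3, 0.94 for PLXNB3, 0.77 for PLXNB1, 0.75 for PLXNA3, 0.68 for EPHB2, 0.65 for SEMA3F and -1.41 for ROBO3. ROBO3 was the single one of these with a negative difference, and its change with 5 µM was 0.48 at day 1 and -0.93 at day 5. Both doses share the DMSO libraries of each day. With 3 libraries per group, single libraries were not tested as outliers.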

How the results depend on the processing

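Of the calls of the 18 members discussed most, in the comparisons of a treatment with DMSO, none reversed direction under the alternatives run. The counts of members called stayed within 1.5 times of the reported count under RLE scaling, no filter on low counts, the DESeq2 Wald test and the replicate block. When 1 library was left out, 4 counts moved further: talazoparib against olaparib, 4 to 9 members (9 with all libraries), enzalutamide by talazoparib, 5 to 8 (9), 1 µM olaparib at day 1, 6 to 11 (11), and DMSO at day 5 against day 1, 7 to 12 (12). For the members discussed most, RLE scaling kept all 180 calls and non-calls, DESeq2 kept 175 of 179, no filter kept 176 of 180, and leaving out 1 library kept 1019 of 1080. The replicate block kept 178 of 180: the fall of NRP1 at 5 µM and day 1 lost its call (-0.08, adjusted p = 0.0563), and PLXNB3 at 1 µM and day 1 gained one (0.14, adjusted p = 0.0432). Libraries with the same letter or number share only a name: their deviations from the group means correlated at -0.081 to 0.073 in the panel (63 pairs, 7 of 21 libraries best with their own letter) and -0.132 to 0.127 in the time course (45 pairs, 3 over 0.1, 2 of 18 libraries best with their own number). Genes of few counts (the netrins, UNC5C, EPHA5, EPHB1, EPHA8, PLXNA4, SEMA3E) are limited by depth.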
